A study of Mus musculus with 193 samples.

Results

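Wild-type mouse germ cells taken at postnatal day 7 (P7) were set against wild-type cells taken at postnatal day 3 (P3). The members are all cells whose column in the deposited table starts with the wild-type P7 or wild-type P3 name, 53 P7 cells and 71 P3 cells, and the other 69 cells of the series are labelled knockout. Both groups were GFP-positive cells sorted from digested testes of animals with the Id4-eGFP reporter and labelled wild type, so every cell on either side carries the reporter. Each deposited sample is 1 cell, amplified with SMARTer chemistry on a Fluidigm C1 chip and spiked with ERCC RNA. Letters in the sample titles, whose meaning the labels do not give, split the P7 cells into 12 of set A and 41 of set B, and the P3 cells into 16 of set A and 55 of set B. The labels name no animal or litter, so each age counts as 1 sample, and no p-value was computed. Age cannot be told apart from anything else that differed between the cells of the 2 ages.

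In the newborn mouse testis, gonocytes (prospermatogonia) move to the basement membrane of the seminiferous cords and become spermatogonia in the first days after birth. Some of these found the pool of spermatogonial stem cells, which depend on GDNF from Sertoli cells, while others go on to progenitor and differentiating stages that express Kit. Id4, an inhibitor of basic helix-loop-helix factors, is enriched in the stem cell fraction, which is why its reporter is used for sorting, and Zbtb16 (PLZF) is a transcriptional repressor that maintains undifferentiated spermatogonia.

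Levels are given as RPM, the reads of a gene per 1000000 reads of the cell's total (rescaled in each cell so that 2766 genes found above 1 RPM in at least 90% of the wild-type cells sum to the same value, which gives scaled RPM). A level is the mean over the cells of a set of log2(scaled RPM + 1). A difference is the mean of the P7 sets minus the mean of the P3 sets, with the range over the 4 pairs of a P7 set and a P3 set. A gene counted as measured when its mean level over the 4 sets reached 1, and was called higher or lower when the difference was at least 1 in size with the same sign in all 4 pairs. The values carry no gene length, so levels are compared between ages and never between genes.

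Recovered totals had a median of 3299782 reads (1738640 to 4778782) in P7 cells and 4425187 reads (251530 to 10663508) in P3 cells, with medians of 6530 and 7072 genes above 1 RPM. Genes took up more of the total at P7, with a median of 150323 RPM against 105934 RPM at P3, which is what the rescaling removes. Ddx4 and Dazl, which mark germ cells, were above 1 RPM in all 53 P7 and all 71 P3 cells, as was Sall4, a factor of undifferentiated spermatogonia. Set P7 A stood apart from set P7 B, as 753 of 7685 measured genes (9.80%) differed by at least 1 between them, against 283 (3.68%) between the P3 sets. Between ages the same count was 1670 for P7 A against P3 A and 449 for P7 B against P3 B. ERCC spike-in RNA followed the letters more than the age, with medians of 12703 RPM in P7 A, 8033 RPM in P7 B, 11969 RPM in P3 A and 7465 RPM in P3 B. At least 2 of the Sertoli cell markers Clu, Wt1, Sox9 and Amh were above 1 RPM in 0 of 53 P7 cells and in 14 of 71 P3 cells, 5 of them in set A and 9 in set B. The summed level of 16 Sertoli markers ranged from 0 to 142 scaled RPM (median 30.02) at P7, with 8 of the 16 at 0 in all P7 cells, and from 4.60 to 1186 scaled RPM (median 43.7) at P3. The part of such RNA in the differences was not tested, but values without those 14 cells are given beside the groups it touches.

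Of 7685 measured genes, 139 were called higher at P7, a background of 1.81%, and 515 were called lower, a background of 6.70%. Higher genes thus made up 21.3% of calls on this scale. On the deposited RPM, without rescaling, 538 genes (7.02%) were called higher and 221 (2.88%) lower, so that higher genes made up 70.9% of calls. The median difference of all genes was -0.14 on the rescaled values and 0.17 on the deposited ones, a shift of 0.31. On both scales 139 genes (1.82% of 7650) were called higher and 221 (2.89%) lower, and no gene was called in opposite directions. The balance of higher against lower genes therefore belongs to the scale, while the 139 higher and 221 lower genes were called under either. The deposited values are shifted toward P7, so genes called higher after rescaling would mostly stay called on them. A call on both scales therefore adds little for higher genes and is a stricter condition only for lower ones.

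**Figure D1:**
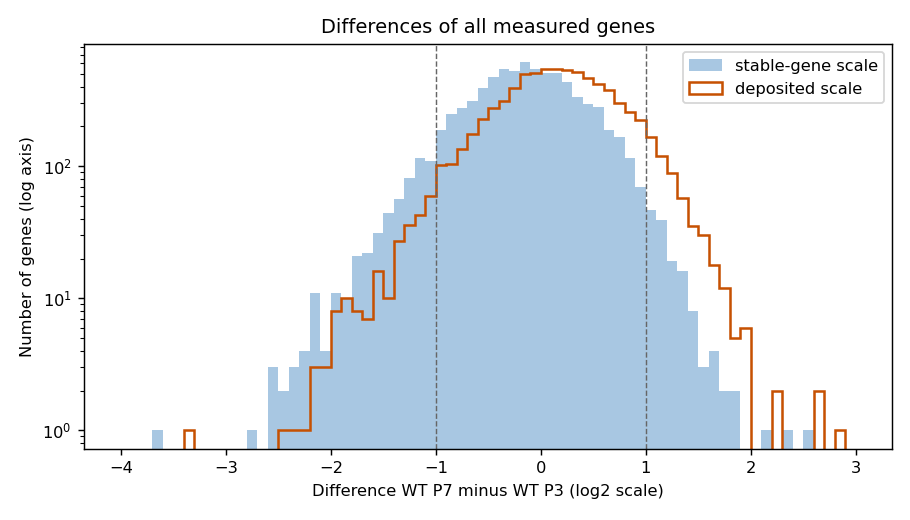
Number of genes (log axis) by difference WT P7 minus WT P3 on the log2 scale, for the rescaled values (filled) and the deposited RPM (line), with dashed lines at a difference of 1 in either direction. The whole distribution on the deposited values sits further to the right, with medians of 0.17 against -0.14.

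The 4 genes that lead this comparison split into a pair higher at P7, Zbtb16 and Brwd3, and a pair lower at P7, Fos and Sgk1. Zbtb16 (ENSMUSG00000066687.5, chromosome 9, 48654297 to 48836222, minus strand) ran from 0 to 135 scaled RPM with a median of 40.6 in P7 cells, against 0.679 to 44.3 with a median of 11.9 in P3 cells. Nearly every cell of either age had the transcript, 98.1% of P7 and 98.6% of P3 cells above 1 RPM, so the ages differed in amount and not in detection. By set its level was 5.24 ± 2.23 (SD between cells, n = 12) in P7 A and 5.19 ± 0.70 (n = 41) in P7 B, against 2.94 ± 1.12 (n = 16) in P3 A and 3.77 ± 0.96 (n = 55) in P3 B. Both P7 sets lay above both P3 sets, the difference was 1.86 (pairs 1.42 to 2.3), and 50 of 53 P7 cells were above the P3 median. The wide SD of P7 A goes with a few cells of that set that had little or no Zbtb16, visible in the plot of single cells.

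Brwd3 (ENSMUSG00000063663.11, chromosome X, 108737016 to 108834372, minus strand), which encodes a protein with bromodomains and WD repeats, differed in how many cells had it. It ran from 0 to 114 scaled RPM (median 19) in P7 cells and from 0 to 86.2 scaled RPM (median 0.683) in P3 cells. It was above 1 RPM in 81.1% of P7 cells (95% exact interval 68.0% to 90.6%) and 43.7% of P3 cells (31.9% to 56.0%). These intervals, like all below, cover counting error only. With every cell thinned to 2000000 reads, which kept 51 P7 and 62 P3 cells, the shares with at least 1 read were 82.4% and 54.8%. Thinning evens the total and not the reads in genes, which take up more of the total at P7. Shares of cells above 1 RPM, here and below, likewise use the deposited values and not the rescaled ones. Set means were 4.54 and 3.32 in P7 A and B, against 0.97 and 1.78 in P3 A and B, a difference of 2.55 (pairs 1.54 to 3.56), the highest of all genes whose mean level reached 2.

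Fos (ENSMUSG00000021250.13, chromosome 12, 85473890 to 85477273, plus strand) encodes a subunit of the AP-1 transcription factor and is induced within minutes of many stimuli. Fos had 0 to 27.6 scaled RPM (median 0.211) in P7 cells, against 0.177 to 176 scaled RPM (median 31) in P3 cells. None of the 53 P7 cells reached the P3 median, and 70 of 71 P3 cells were above the P7 median. The mean was 3.10 scaled RPM at P7 and 39.8 scaled RPM at P3, a ratio of P3 to P7 of 12.8. By set the level was 0.48 and 1.41 in P7 A and B, against 4.43 and 4.71 in P3 A and B, a difference of -3.62 (pairs -4.23 to -3.01), the lowest of any called gene whose mean level reached 2.

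Sgk1 (ENSMUSG00000019970.15, chromosome 10, 21882184 to 21999903, plus strand) encodes a serine/threonine kinase that acts downstream of PI3K and is itself induced by glucocorticoids and growth factors. It ran from 0 to 44.6 scaled RPM (median 1.09) at P7 and from 0 to 144 scaled RPM (median 19.7) at P3. Sgk1 was above 1 RPM in 50.9% of P7 cells (36.8% to 64.9%) and 93.0% of P3 cells (84.3% to 97.7%). Its set means of 1.11 and 2.22 in P7 A and B lay below those of 4.88 and 4.02 in P3 A and B, with a difference of -2.78 (pairs -3.77 to -1.79). Without the 14 P3 cells with Sertoli markers the differences of Fos and Sgk1 were -3.46 and -2.75.

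**Figure D2:**
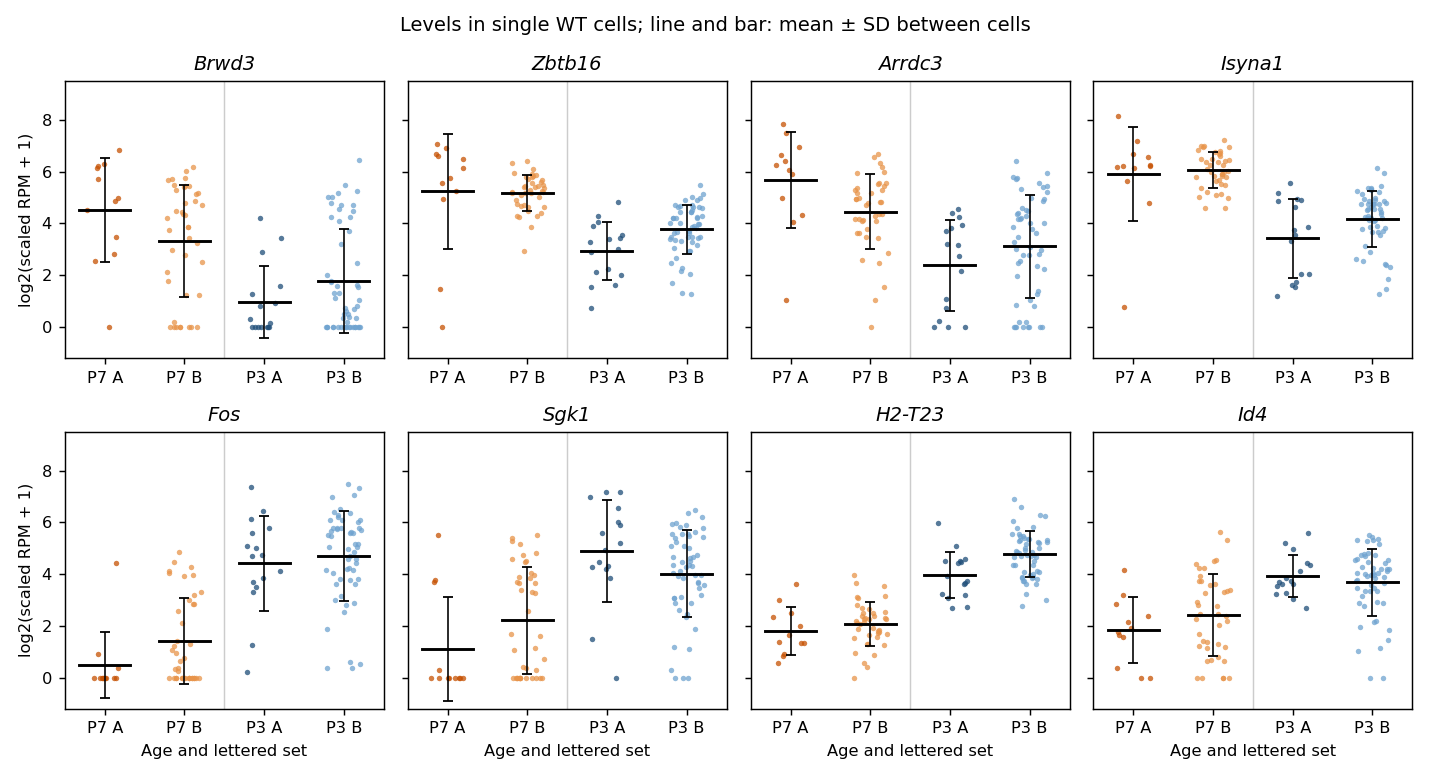
Level of 8 genes in each wild-type cell, as log2(scaled RPM + 1), by age and lettered set, with the set mean and SD between cells. Brwd3, Zbtb16, Arrdc3 and Isyna1 have higher means in both P7 sets than in both P3 sets, and Fos, Sgk1, H2-T23 and Id4 have lower ones.

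The reporter gene itself was lower at P7. Id4 (ENSMUSG00000021379.2, chromosome 13, 48261228 to 48266026, plus strand) ran from 0 to 49 scaled RPM (median 3.86) in P7 cells and from 0 to 46.9 scaled RPM (median 14.3) in P3 cells. Set means were 1.83 and 2.42 in P7 A and B against 3.93 and 3.69 in P3 A and B, a difference of -1.68 (pairs -2.10 to -1.27). As both ages were sorted on this reporter by a gate the labels do not describe, the level of Id4 RNA may also reflect the sort, which was not tested. Rhox10, the X-linked homeobox gene at the centre of the series, was at 1.46 and 1.42 in P7 A and B and 1.83 and 1.63 in P3 A and B. Its difference of -0.29 (pairs -0.41 to -0.17) was not called.

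Beyond Zbtb16 and Brwd3, the genes highest at P7 included genes of inositol, sugar and protein metabolism, receptor traffic and chromatin. Arrdc3, an arrestin-domain adaptor that links membrane receptors to ubiquitin ligases, had a median of 29.5 scaled RPM (0 to 231) at P7 and 8.35 scaled RPM (0 to 85.0) at P3, a difference of 2.31 (pairs 1.33 to 3.29). Isyna1, which makes inositol phosphate from glucose 6-phosphate, had a median of 70.8 scaled RPM (0.692 to 280) at P7 and 18.2 scaled RPM (1.30 to 70.5) at P3, a difference of 2.17 (pairs 1.72 to 2.63). Not one of the 71 P3 cells exceeded the P7 median of Isyna1, and 52 of 53 P7 cells exceeded the P3 median, which makes its separation the clearest of the genes higher at P7 in the plot of single cells. Sfrp2, a secreted antagonist of WNT ligands, differed by 1.88 (pairs 1.27 to 2.50), with 98.1% of P7 and 69.0% of P3 cells above 1 RPM.

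The chromatin reader gene Bahcc1 differed by 1.67 (pairs 1.34 to 2.01) and the zinc finger gene Bnc2 by 1.5 (pairs 0.68 to 2.33). Genes of sugar chains followed, namely Gyltl1b, whose product extends the glycan of dystroglycan, at 1.66 and B4galt1, a galactosyltransferase of the Golgi, at 1.61. Aars, the alanyl-tRNA synthetase, also differed by 1.61 (pairs 0.91 to 2.31). Cyc1, a subunit of respiratory complex III, differed by 1.55 (pairs 0.80 to 2.3). Adprh, which removes ADP-ribose from arginine, and Tmtc4, a mannosyltransferase of the endoplasmic reticulum, both differed by 1.44 (Tmtc4 by 0.92 without set P7 A, short of a call), and Maged1, an X-linked adaptor gene of the MAGE family, by 1.4. Maged1 was above 1 RPM in every cell, with a median of 102 scaled RPM (10.0 to 284) at P7 and 40.4 scaled RPM (3.13 to 247) at P3.

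The lowest genes at P7 included several of the cell surface, the extracellular matrix and the nuclear envelope. H2-T23, which encodes the MHC class I molecule Qa-1, had 0 to 14.8 scaled RPM (median 3.20) in P7 cells and 5.46 to 117 scaled RPM (median 24.3) in P3 cells. Every P7 cell was below the P3 median and every P3 cell above the P7 median, a separation not seen for the other genes plotted. Its set means were 1.79 and 2.07 in P7 A and B against 3.96 and 4.76 in P3 A and B, and the difference was -2.43 (pairs -2.97 to -1.89). Tex12, a gene of the synaptonemal complex, had a median of 12.0 scaled RPM (0 to 44.6) at P7 and 41.3 scaled RPM (7.94 to 97.4) at P3, a difference of -2.41 (pairs -3.16 to -1.66).

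Ptgr1, a reductase of prostaglandins, differed by -2.58 (pairs -3.53 to -1.62), Nudt4, which hydrolyses diphosphoinositol polyphosphates, by -2.27, and the liprin gene Ppfibp1 by -2.16. Pmaip1 (Noxa), a BH3-only gene of the p53 response, had a median of 8.04 scaled RPM (0 to 65.5) at P7 and 25.3 scaled RPM (0 to 156) at P3, a difference of -2.25 (pairs -2.66 to -1.84). Lmna, which encodes lamins A and C, was above 1 RPM in 43.4% of P7 cells and 85.9% of P3 cells, and differed by -2.13 (pairs -3.01 to -1.26). With the 14 Sertoli-marker cells left out, Lmna differed by -2.04 and H2-T23 by -2.40. All 30 genes at the ends of the ranking were called on the deposited values too, which is a stricter condition only for the 15 lower ones.

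**Figure D3:**
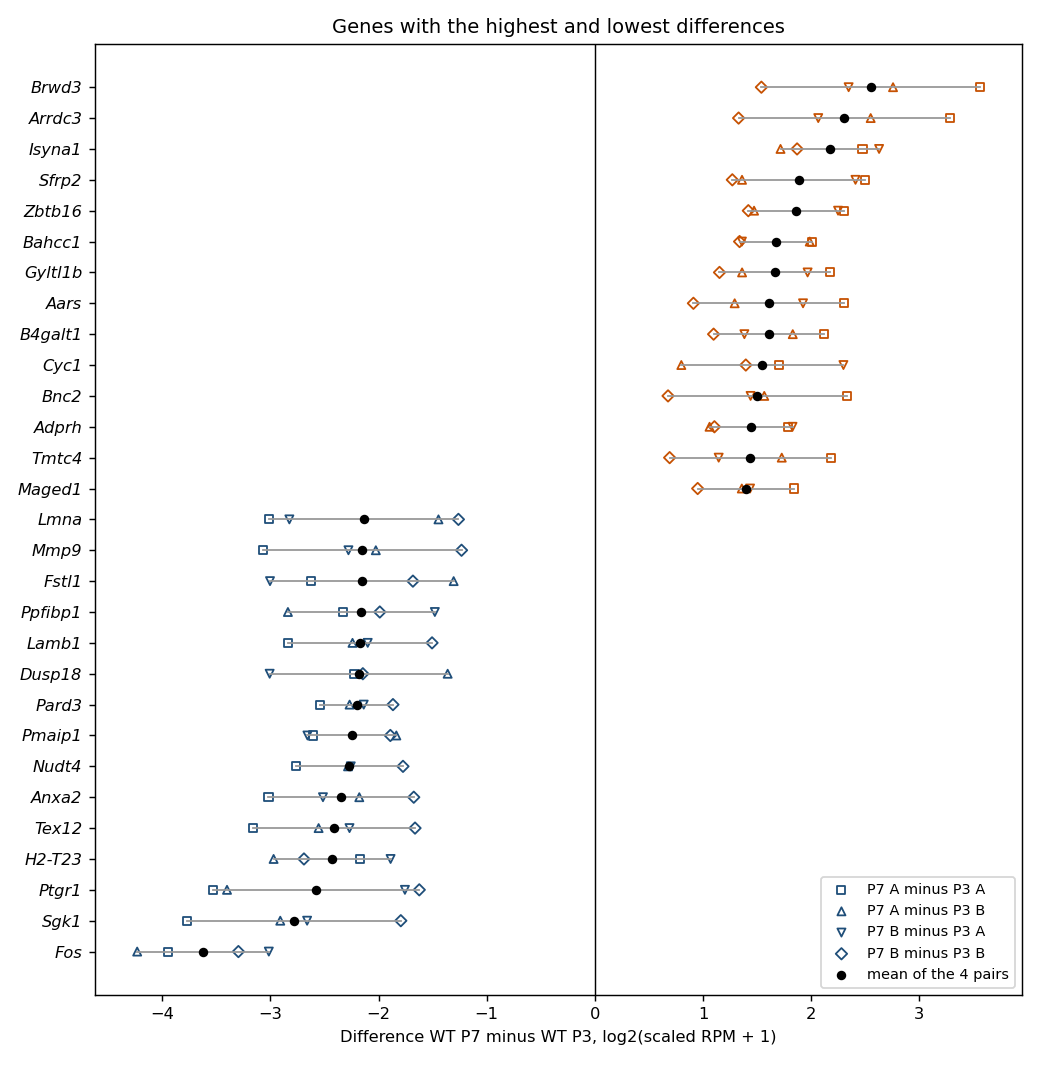
Difference WT P7 minus WT P3 in log2(scaled RPM + 1) for genes with the highest and lowest differences among called genes whose mean level reached 2. Black points are the mean of the 4 pairs of sets and open symbols the single pairs; every pair lies on the same side of 0, from Brwd3 at 2.55 to Fos at -3.62.

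Members and lists, here and below, were chosen with earlier results of these data known, and the given genes Zbtb16, Brwd3, Fos and Sgk1 are counted in them. Their shares beside the background therefore describe the lists and are not tests. Among transcription factors, a list of 34 stem and progenitor factors had 24 measured members. Called higher were 3 (12.5% against a background of 1.81%) and lower 1 (4.17% against 6.70%), all on both scales. Higher were Zbtb16, Bnc2 and Zfp462, a zinc finger gene (1.05, pairs 0.32 to 1.78), and lower was Id4. Zfp462 was short of a call without set P7 A (0.71), set P3 A (0.66) or the 14 Sertoli-marker cells (0.80). The median of the list was -0.16, against -0.14 for all genes. Members that were not called included Foxo1, a factor needed for stem cell function, at 0.68 (pairs 0.39 to 0.96), Sohlh1, a differentiation factor, at 0.59 (pairs 0.27 to 0.92), Glis3 at 0.77, and the GDNF-responsive factor Etv5 at -0.31 (pairs -0.78 to 0.16). Eomes, expressed in a subset of stem cells, was at -0.94 and the RNA-binding factor Lin28a at -0.88 (pairs -1.14 to -0.61).

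Immediate early genes, which respond to stimuli without new protein synthesis, were the factor group with the most calls in 1 direction. Of 14 measured members, 0 were called higher and 4 lower, Fos, Dusp1, Jun and Klf4, which is 28.6% against the background of 6.70%, and 2 of these, Fos and Dusp1, on both scales. Dusp1, a phosphatase that inactivates MAP kinases, had a median of 6.55 scaled RPM at P7 and 18.5 scaled RPM at P3, a difference of -1.49 (pairs -1.70 to -1.29). Jun, the partner of Fos in AP-1, had medians of 0.190 and 2.26 scaled RPM at P7 and P3 and differed by -1.15 (pairs -1.56 to -0.74). Klf4 had medians of 5.73 and 12.0 scaled RPM at P7 and P3 and differed by -1.002 (pairs -1.22 to -0.79), but by -0.80 without the 14 Sertoli-marker cells, where it was no longer called. Jun lost its call without set P7 A (-0.99) or P3 A (-0.90), and Klf4 without set P7 B (-0.89) or P3 A (-0.90). Of 19 alternatives, Jun lost its call in 7 and Klf4 in 11, for Klf4 among them every other scaling, thinned reads and averaging before the logarithm. The group did not move as 1, as Egr1 was at -0.44 (pairs -1.29 to 0.40) with 53.4 scaled RPM at P7 and 78.5 at P3, Egr2 at -0.84 (pairs -0.98 to -0.71), and Klf10 at 0.30 (pairs -0.18 to 0.77).

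The promoters of the 4 immediate early genes called lower at P7 are shown because such genes are known to be read through short elements close to their start, such as the cyclic AMP response element. The RefSeq sequences (build GRCm38.p6) run from 250 bases before to 50 bases after the start of the gene, 5′ to 3′ on the gene's strand. They are Fos (chr12:85473640-85473939, plus strand), Dusp1 (chr17:26508423-26508722, minus strand), Klf4 (chr4:55532426-55532725, minus strand) and Jun (chr4:95052173-95052472, minus strand). Capitals mark TGACG, the half-site of the cyclic AMP response element, on either strand, and TATAA on the gene's strand.
Fos: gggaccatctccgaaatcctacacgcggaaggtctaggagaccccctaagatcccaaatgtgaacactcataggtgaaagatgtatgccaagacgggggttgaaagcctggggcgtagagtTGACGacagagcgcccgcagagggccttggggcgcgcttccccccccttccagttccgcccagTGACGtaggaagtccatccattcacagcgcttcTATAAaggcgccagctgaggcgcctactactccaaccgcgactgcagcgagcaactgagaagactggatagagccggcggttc
Dusp1: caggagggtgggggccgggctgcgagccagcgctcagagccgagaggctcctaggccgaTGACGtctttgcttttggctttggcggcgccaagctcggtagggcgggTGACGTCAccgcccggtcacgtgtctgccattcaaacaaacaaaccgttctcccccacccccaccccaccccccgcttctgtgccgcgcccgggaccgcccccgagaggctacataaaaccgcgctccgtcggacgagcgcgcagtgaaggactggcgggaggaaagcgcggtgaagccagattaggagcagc
Klf4: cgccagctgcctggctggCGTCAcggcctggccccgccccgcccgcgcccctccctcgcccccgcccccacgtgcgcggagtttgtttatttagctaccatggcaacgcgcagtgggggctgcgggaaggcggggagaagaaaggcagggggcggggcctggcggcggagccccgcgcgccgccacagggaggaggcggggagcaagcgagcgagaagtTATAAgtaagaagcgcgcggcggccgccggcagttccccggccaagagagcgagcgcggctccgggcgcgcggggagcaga
Jun: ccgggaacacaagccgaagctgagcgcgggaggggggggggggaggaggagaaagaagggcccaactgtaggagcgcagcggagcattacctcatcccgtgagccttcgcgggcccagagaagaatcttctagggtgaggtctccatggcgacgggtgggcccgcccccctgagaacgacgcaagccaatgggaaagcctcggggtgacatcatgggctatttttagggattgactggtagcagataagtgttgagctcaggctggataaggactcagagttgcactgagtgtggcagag
Dusp1 held 3 matches to TGACG, 2 of which overlap as the full palindromic element, Fos held 2 matches, Klf4 held 1 and Jun held 0. TATAA was found in Fos and Klf4, 1 match each. The AP-1 motif TGANTCA, searched on both strands, and the CArG box were found in none of the 4 within this window. Sequence further upstream and variants of these strings were not searched, so the promoters may hold such elements there or in other spellings. TGACG was present in 36% of the promoters of 5634 measured genes and in 21% of all 27025 promoters, TATAA in 7.47% and 18.2%, TGANTCA in 4.03% and 7.93%, and the CArG box in 1.28% and 1.57%. A match is a string of letters and not a site of binding.

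Of 16 measured homeobox genes, 0 were called higher and 3 lower (18.8% against a background of 6.70%), Tgif1, Cux1 and Pbx3, and only Tgif1 on both scales. Tgif1, a repressor of SMAD-dependent transcription, had a median of 1.43 scaled RPM at P7 and 18.3 scaled RPM at P3, a difference of -2.13 (pairs -2.62 to -1.64). Its size was close to that of the genes at the bottom of the ranking, and without the Sertoli-marker cells it was -1.95. Of 18 ZBTB genes, Zbtb16 was called higher (5.56% against a background of 1.81%) and Zbtb11 (-1.30) lower (5.56% against 6.70%). Of 9 ETS genes 0 were called higher and 2 lower (22.2%), Etv4 (-1.47) and Ets1 (-1.01). Of 11 nuclear receptors 0 were called higher and 2 lower (18.2%), the glucocorticoid receptor gene Nr3c1 (-1.29) and the germ cell nuclear factor gene Nr6a1 (-1.23). Several of these calls rest on set P7 A, without which Etv4, a responder to FGF and GDNF signals, was at -0.80, Cux1 at -0.83, Zbtb11 at -0.96, Ets1 at -0.70 and Nr6a1 at -0.90. Etv4 was also short of a call without P3 A (-0.92) and Ets1 without P3 B (-0.89), while Cux1 without P3 A and Pbx3 without either P3 set fell under the floor for measured genes.

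The 13 measured KLF and SP genes had a positive median of 0.30 although 2 of them (15.4% against a background of 6.70%) were called lower, Klf4 and Sp3 (-1.13). Klf8 (0.84) and Klf13 (0.80) were at the other end. Among 23 basic helix-loop-helix and MYC genes, Srebf2, which drives cholesterol synthesis, was called higher (1.04, pairs 0.62 to 1.45), and Id4 lower. Either call is 4.35% of the list, against backgrounds of 1.81% higher and 6.70% lower. Tcf3, one of the E-proteins that ID proteins bind, was at 0.65 (pairs 0.32 to 0.98) without a call. Irf1, an interferon-response factor, was the 1 call among 11 STAT, IRF and NF-kB genes (9.09% against a background of 1.81%). Irf1 had a median of 26.3 scaled RPM at P7 and 11.5 scaled RPM at P3, a difference of 1.18 (pairs 0.93 to 1.44). No member was called among 4 SOX or 14 ATF, CREB and CEBP genes. Called lower was 1 each (8.33%, near the background of 6.70%) among 12 forkhead genes (Foxn2, -1.33) and 12 E2F and RB genes (E2f6, -1.23). Calls were lost without set P7 A for Sp3 (-0.51), Srebf2 (0.71) and E2f6 (-0.66), without P3 A for E2f6 (-0.95), without P3 B for Srebf2 (0.95), and without the Sertoli-marker cells for Srebf2 (0.88) and Irf1 (0.83).

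**Figure D4:**
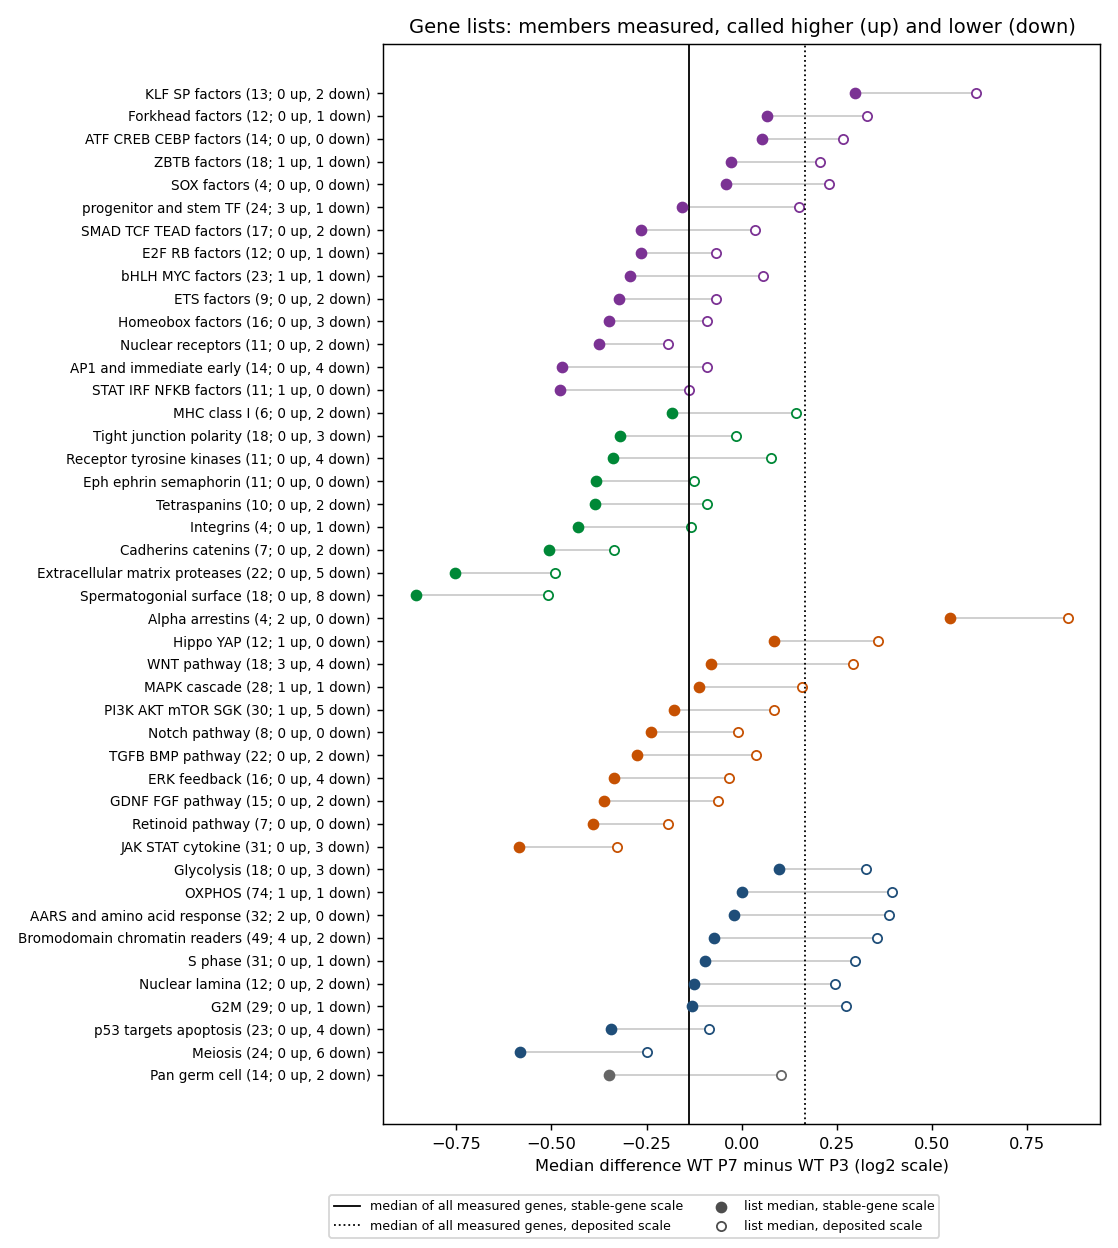
Median difference WT P7 minus WT P3 of each gene list with at least 4 measured members, on the rescaled values (filled) and the deposited RPM (open), coloured by class (transcription factors, surface, signalling, cell state, germ cell). Labels give the members measured and those called higher (up) and lower (down). Vertical lines mark the medians of all genes at -0.14 and 0.17, and of the lists drawn those of spermatogonial surface and matrix genes lie furthest to the left of them.

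Surface genes of spermatogonia were lower at P7 more often than any other list of 10 or more members. Of 18 measured members, 0 were called higher and 8 lower (44.4%, against a background of 6.70%), 3 of them on both scales, and the median was -0.86, or -0.51 on the deposited values. On both scales were Cd24a (-1.62, pairs -2.14 to -1.11), a glycoprotein of immature cells, Cdh1 (-1.61, pairs -2.23 to -1), E-cadherin, and Tspan8 (-1.46, pairs -2.04 to -0.88), a tetraspanin used to enrich stem cells. Cdh1 had a median of 3.89 scaled RPM at P7 and 13.7 scaled RPM at P3, and Tspan8 a median of 0 at P7 and 5.17 scaled RPM at P3. Called on the rescaled values alone were Epcam (-1.38), Emb (-1.29), Mcam (-1.23), Kit (-1.2) and Lifr (-1.09).

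The list was not uniform, because the receptor and integrin genes most used to define stem cells did not share this direction. Gfra1, which binds GDNF, was at 0.00 (pairs -0.36 to 0.37) with medians of 21.1 scaled RPM at P7 and 18.3 scaled RPM at P3. Itga6, a laminin receptor subunit, was at 0.69 (pairs 0.43 to 0.96), and its partner Itgb1 at -0.17 (pairs -0.41 to 0.08). Kit was detected in 41.5% of P7 cells and 66.2% of P3 cells, but its highest P7 cell had 122 scaled RPM against 55 scaled RPM at P3. Its mean over cells was 11.23 scaled RPM at P7 and 9.734 at P3. By set the mean was 1.732 and 14.01 in P7 A and B, against 12.95 and 8.798 in P3 A and B. Kit lost its call in 7 of 19 alternatives, among them averaging before the logarithm and weighting every cell equally. Without the 14 Sertoli-marker cells 8 of 18 surface genes were still called lower, Cd24a at -1.26, and without set P7 A 4 of 19, with Epcam at -0.66, Mcam at -0.94, Kit at -0.53 and Lifr at -0.99. Without set P3 A, Epcam was at -0.99 and Lifr at -0.65.

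Junction and polarity genes followed in smaller numbers. Pard3, the scaffold of the apical polarity complex, had 0 to 24.1 scaled RPM (median 0.519) in P7 cells and 0 to 66.6 scaled RPM (median 9.79) in P3 cells, a difference of -2.20 (pairs -2.54 to -1.87). Marveld2 (tricellulin) at -1.15 was also called lower. Of 18 measured tight junction and polarity genes, 3 were called lower (16.7% against a background of 6.70%) and none higher. Ctnnb1, beta-catenin, had medians of 47.1 scaled RPM at P7 and 99.9 scaled RPM at P3 and differed by -1.16 (pairs -1.40 to -0.92). Among 10 tetraspanins, Tspan8 and Tspan13 (-1.11) were called lower, and among 11 Eph, ephrin and semaphorin genes none was called in either direction. Set P7 A was needed for the calls of Marveld2 (-0.64 without it), Ctnnb1 (-0.97) and Tspan13 (-0.75).

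Of 6 measured MHC class I and antigen-processing genes, 2 were called lower (33.3% against a background of 6.70%), both of them on both scales. They were H2-T23 and B2m (-1.49, pairs -1.75 to -1.23), the 2 chains of 1 surface complex. The processing gene Erap1 was at 0.70 (pairs 0.02 to 1.38), so the list median of -0.18 was close to that of all genes. A list drawn up for receptor tyrosine kinases had 11 measured members, 0 called higher and 4 lower (36.4% against a background of 6.70%). The 4 were the collagen receptor Ddr1 (-1.66, pairs -2.04 to -1.27), the VEGF receptor Flt1 (-1.22), Kit and Igf2r (-1.17), Ddr1 and Flt1 on both scales. Igf2r is on the list but is not a receptor tyrosine kinase, so the share is that of the list and not of the family. Igf1r, the insulin-like growth factor 1 receptor, had the opposite sign at 0.89 (pairs 0.22 to 1.57) and was not called. Igf2r was at -0.96 without set P3 A, and Flt1 at -0.97 without the Sertoli-marker cells, both short of a call.

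Genes of the extracellular matrix and its proteases had a median of -0.75, and 20 of 22 measured members lay below 0, 15 of them in all 4 pairs. Called lower were 5 genes (22.7% against a background of 6.70%) and higher 0. They were Lamb1, a laminin chain of basement membranes (-2.17, pairs -2.84 to -1.51), Mmp9, gelatinase B (-2.15, pairs -3.07 to -1.23), Serpine2, an inhibitor of serine proteases (-1.75), Col4a1, a collagen IV chain (-1.70), and Timp1, an inhibitor of metalloproteases (-1.29). Lamb1 had 0 to 42.2 scaled RPM (median 6.68) at P7 and 0.615 to 88.2 scaled RPM (median 21.3) at P3, and Mmp9 0 to 26.3 (median 0.818) at P7 and 0 to 80.9 (median 9.81) at P3. Sertoli cells also make laminin and collagen IV, so the values without the 14 P3 cells are relevant here: Lamb1 was at -2.18, Mmp9 at -1.99 and Serpine2 at -1.57, and 5 of 21 members were called lower. Col4a1 fell under the floor without those cells or without either P3 set, and Timp1 without P3 A.

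Annexin A2 and its binding partners belong to the membrane-associated proteins. Only 3 annexin and S100 genes were measured, and 2 of them (66.7% against a background of 6.70%) were called lower on both scales. These were Anxa2 (-2.35, pairs -3.02 to -1.67) and S100a6 (-2.02, pairs -2.35 to -1.70), while Anxa7 was at 0.19. Anxa2 was above 1 RPM in 41.5% of P7 cells (28.1% to 55.9%) and 81.7% of P3 cells (70.7% to 89.9%). Without the Sertoli-marker cells Anxa2 was at -2.36 and S100a6 at -1.94. S100a6 fell under the floor without set P3 A.

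In signalling, the GDNF and FGF pathway had 15 measured members, of which 0 were called higher and 2 lower (13.3% against a background of 6.70%). The 2 were Nefm (-1.74, pairs -2.62 to -0.86) and Etv4. Nefm encodes a neurofilament protein, and without set P7 A it was at -0.98, short of a call. Of the list, 13 of 15 were below 0 and 10 in all pairs. The receptor gene Gfra1 was at 0.00, the adaptor gene Frs2 at -0.23 (pairs -0.45 to -0.0028) and Fgfr1 at -0.81 (pairs -1.45 to -0.16), none of them called. A list drawn up for ERK feedback, which includes Sprouty and Dusp genes, had 0 of 16 members called higher and 4 lower (25% against a background of 6.70%). The 4 were Dusp18 (-2.18, pairs -3.01 to -1.36), Spry4 (-1.70, pairs -2.53 to -0.87), Dusp1 and Dusp16 (-1.07), the first 3 on both scales. Dusp1 is also counted among the immediate early genes, and whether the 4 follow ERK activity was not tested. Spry4, a Sprouty inhibitor of receptor tyrosine kinase signals, had a median of 3.10 scaled RPM at P7 and 10.1 scaled RPM at P3, while 13 of 16 members were below 0 and 6 in all pairs. Dusp16 was at -0.87 without set P7 A and under the floor without either P3 set.

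The kinase cascade itself was nearly even. Of 28 RAS, RAF, MEK and MAP kinase genes, Map3k4 was called higher (1.07, pairs 0.33 to 1.81) and Braf lower (-1.22, pairs -1.86 to -0.57). Either call is 3.57% of the list, against backgrounds of 1.81% higher and 6.70% lower, and the median was -0.11. Of 30 PI3K, AKT and mTOR genes, 1 was called higher (3.33% against a background of 1.81%), the regulatory subunit gene Pik3r2 (1.12, pairs 0.36 to 1.88). The 5 called lower (16.7% against 6.70%) were Sgk1, the other regulatory subunit gene Pik3r1 (-1.92, pairs -2.27 to -1.57), the ubiquitin ligase gene Nedd4l (-1.36), Pik3cd (-1.17) and Sesn1 (-1.14). Pik3r1 and Pik3r2, which encode interchangeable partners of the catalytic subunit, thus had opposite signs, with medians of 0 and 6.17 scaled RPM at P7 and 4.23 and 2.86 scaled RPM at P3. Tsc2, an inhibitor of mTOR, was at 0.98 (pairs 0.73 to 1.23), just under the size for a call. Several calls here needed 1 set: without P7 A the values were 0.66 for Map3k4, -0.9997 for Braf, 0.81 for Pik3r2, -0.91 for Nedd4l and -0.98 for Pik3cd. Without P3 A they were 0.74 for Map3k4, -0.79 for Braf, 0.67 for Pik3r2, -0.79 for Pik3cd and -0.68 for Sesn1, which was at -0.77 without P7 B. Map3k4 also lost its call without the Sertoli-marker cells.

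WNT genes were called in both directions. Higher on both scales were 3 of 18, Sfrp2, the agonist gene Rspo2 (1.42, pairs 1.34 to 1.5) and the transducer gene Dvl3 (1.01, pairs 0.36 to 1.66), or 16.7% against a background of 1.81%. Lower were 4 of 18, Wnt3 (-1.67, pairs -2.99 to -0.35), Tcf7l2 (-1.27, pairs -1.41 to -1.14), Lgr4, a receptor of R-spondins (-1.27), and Ctnnb1, or 22.2% against 6.70%, and of these Wnt3 alone was called on both scales. Rspo2 had a median of 1.75 scaled RPM at P7 and 0 at P3, and fell under the floor for measured genes without either P7 set. Dvl3 was at 0.55 without P7 A and 0.83 without P3 A, Lgr4 at -0.52 without P3 A and Ctnnb1 at -0.97 without P7 A, while Wnt3 fell under the floor without P3 A. Dvl3 also lost its call without the Sertoli-marker cells, where 2 of 18 were called higher and 5 lower, and without cells under 1000000 reads. In the TGF-beta and BMP pathway 0 of 22 were called higher and 2 lower (9.09%, near the background of 6.70%). The 2 were Tgif1 and Fstl1, a secreted follistatin-like protein (-2.15, pairs -3.00 to -1.31).

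Of 31 cytokine and JAK-STAT genes, 0 were called higher and 3 lower (9.68%, near the background of 6.70%). The 3 were Socs5 (-1.53, pairs -1.89 to -1.16), the phosphatase gene Ptpn3 (-1.25) and Lifr (-1.09). Stat3 was at 0.70 (pairs 0.05 to 1.35). Among 12 Hippo genes, 1 was called higher (8.33% against a background of 1.81%), the kinase gene Lats2 (1.36, pairs 0.76 to 1.97). Among 8 Notch and 7 retinoid genes none was called, with Stra8, the target of retinoic acid, at 0.13 (pairs -0.16 to 0.41). Arrdc3 and Arrdc4 (1.06, pairs 0.88 to 1.23) were both called higher among 4 measured alpha-arrestin family genes, while Txnip was at 0.04 (pairs -0.31 to 0.38) with medians of 58.7 scaled RPM at P7 and 46.8 scaled RPM at P3. Without set P3 A, Ptpn3 was at -0.69 and Lifr at -0.65, and without P7 B, Arrdc4 was at 0.89.

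Meiotic genes, several of which are transcribed in spermatogonia long before meiosis, were lower at P7. Of 24 measured members 0 were called higher and 6 lower (25%, against 6.70%), 3 of them on both scales, 16 were below 0 in all pairs, and the median was -0.58. The 6 were Tex12, Hormad1 (-2.11, pairs -2.81 to -1.41), Syce3 (-1.32), the axial element gene Sycp3 (-1.23, pairs -1.36 to -1.10), the meiotic cohesin gene Smc1b (-1.17) and Tex15 (-1.10, pairs -1.15 to -1.04), which acts in recombination and in silencing of transposons. Hormad1, a protein of unsynapsed chromosome axes, had medians of 7.00 scaled RPM at P7 and 22.3 scaled RPM at P3, and Sycp3 29.3 scaled RPM at P7 and 81.1 scaled RPM at P3. Summed over the list, the medians were 596 and 630 scaled RPM in P7 A and B, against 1094 and 1099 scaled RPM in P3 A and B. Tex14, a protein of the bridges between germ cells, lay above 0, at 0.57 (pairs 0.32 to 0.82). Smc1b was at -0.80 without set P7 A, short of a call.

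Of 23 measured p53 target and apoptosis genes, 8 lay above 0 and 15 below. Trp53 had a median of 12.8 scaled RPM at P7 and 7.44 scaled RPM at P3 and a difference of 0.97 (pairs 0.72 to 1.22), short of a call, and Bax, a pore-forming protein, was at 0.74 (pairs 0.61 to 0.87). Called lower were 4 of 23 (17.4% against 6.70%) and higher 0, Pmaip1, Ccng1 (-1.66, pairs -3.18 to -0.15), Mdm2, the ubiquitin ligase of p53 (-1.35, pairs -2.08 to -0.62), and Sesn1, and of these Pmaip1 alone on both scales. Ccng1 was short of a call without P7 A (-0.92) or P3 A (-0.89), Mdm2 without P3 A (-0.96) and Sesn1 without P7 B (-0.77) or P3 A (-0.68).

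Chromatin and nuclear envelope genes had calls at both ends. Of 49 bromodomain, BAH domain and ARID genes, 4 were called higher on both scales (8.16%, against 1.81%), Brwd3, Bahcc1, and the SWI/SNF subunit genes Arid1a (1.05, pairs 0.51 to 1.59) and Arid2 (1.01, pairs 0.41 to 1.6). The 2 called lower (4.08% against 6.70%) were Brdt, the testis bromodomain gene (-1.23, pairs -2.37 to -0.10), and Baz1a (-1.21). Among 12 genes of the nuclear lamina, Lmna and Tor1aip2 (-1.12) were called lower (16.7% against 6.70%). The B-type lamin gene Lmnb1 was at -0.30 (pairs -0.66 to 0.07). Without P7 A or P3 A the SWI/SNF genes were short of a call, Arid1a at 0.77 and 0.80 and Arid2 at 0.84 and 0.57, as was Brdt at -0.89 and -0.44. Baz1a (-0.75) and Tor1aip2 (-0.98) lost their calls without P7 A.

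Metabolic lists had medians near 0 with single genes far from it. Of 18 glycolysis genes 3 were called lower (16.7% against a background of 6.70%) and 0 higher. The 3 were the lactate dehydrogenase genes Ldhb (-1.95, pairs -2.34 to -1.55) and Ldha (-1.77, pairs -2.30 to -1.23) and the hexokinase gene Hk2 (-1.37, pairs -1.56 to -1.18). Above 0 were 11 of the 18, none of them called, among them Gpi1 at 0.78 (pairs 0.57 to 0.99) and Aldoa at 0.72 (pairs 0.67 to 0.76), and the list median was 0.10. Ldha and Aldoa have many pseudogene copies, so their listed reads may be too few. Of 74 respiratory chain genes Cyc1 was called higher (1.35% against 1.81%) and Cox8c (-1.11) lower (1.35% against 6.70%). Their list had a median of -0.00042, or 0.40 on the deposited values. Cox8c was at -0.97 without P7 A. Vars, the valyl-tRNA synthetase (1.38, pairs 1.05 to 1.71), joined Aars as the calls among 32 tRNA synthetase and amino acid response genes (6.25% against 1.81%).

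Cell cycle genes differed between the lettered sets of 1 age more than between the ages. Of 29 measured G2/M genes 1 was called lower, Bub1 (-1.03, but -0.53 without P7 A and -0.97 without P3 A). That is 3.45% against a background of 6.70%, with 0 called higher and a list median of -0.13. This mean hides opposite pairs, since the list median was -0.71 for P7 A against P3 A, -1.48 for P7 A against P3 B, 1.45 for P7 B against P3 A and 0.57 for P7 B against P3 B. Within P7, 28 of the 29 genes were lower by at least 1 in set A than in set B, with a median of -1.95. The summed level of the list per cell had a median of 523 scaled RPM (21.4 to 787) in P7 A and 1117 scaled RPM (602 to 2307) in P7 B, against 640 scaled RPM (175 to 1684) in P3 A and 822 scaled RPM (382 to 2030) in P3 B.

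With set P7 B alone against both P3 sets, 16 of 29 measured G2/M genes were called higher and 0 lower, where the background of this comparison was 2.47% higher and 5.22% lower of 7828 genes. S phase genes had the same order of sets, with medians of the summed level of 629 and 1033 scaled RPM in P7 A and B, and 669 and 921 scaled RPM in P3 A and B. The direction of both lists between the ages thus depended on which P7 set was taken.

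**Figure D5:**
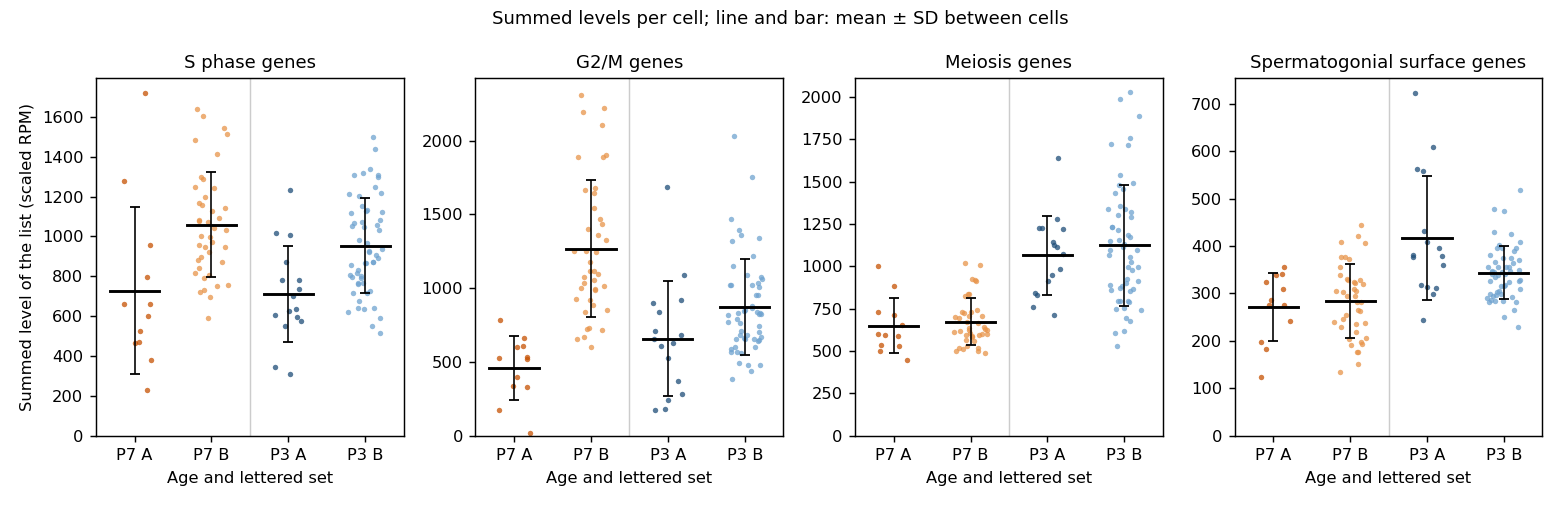
Summed level of the measured genes of 4 lists per cell, in scaled RPM, by age and lettered set, with set mean and SD between cells. G2/M genes are lowest in P7 A and highest in P7 B, while meiosis genes are lower in both P7 sets, with medians of 596 and 630 scaled RPM against 1094 and 1099 scaled RPM in the P3 sets.

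Pan germ cell genes were called in 2 of 14 cases, both lower (14.3% against a background of 6.70%). The 2 were Sycp3 and Piwil4 (-1.04, pairs -1.29 to -0.80), a PIWI protein that guides transposon silencing in the fetal and newborn testis. Piwil4 was at -0.93 without P7 A, -0.91 without P3 A and -0.79 without the Sertoli-marker cells. The translational regulators Dnd1 (0.88, pairs 0.65 to 1.12) and Nanos3 (0.84, pairs 0.57 to 1.12) and the piRNA factor Tdrkh (0.92, pairs 0.37 to 1.48) lay above 0 without a call. Dazl was at -0.35 (pairs -0.46 to -0.25) and Ddx4 at -0.44 (pairs -0.54 to -0.35). Summed over the lists of other testis cells, stromal markers reached 22.4 scaled RPM (median 1.01) at P7 and 387 scaled RPM (median 1.96) at P3, with Sertoli markers as given above. Clu was above 1 RPM in 3 of 53 P7 cells and 29 of 71 P3 cells, and Fcer1g, listed as a leukocyte gene, in 12 of 53 P7 cells and 48 of 71 P3 cells, while Ptprc, which defines leukocytes, was above 1 RPM in 2 of 53 P7 and 0 of 71 P3 cells. Of the Leydig cell markers, Star was above 1 RPM in 15 of 53 P7 and 18 of 71 P3 cells, and Cyp11a1 was at 0 in all cells of both ages.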

How the data were processed

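Single-cell libraries were made with SMARTer chemistry on a Fluidigm C1 chip and Nextera XT, per the labels' protocols. STAR 2.3.0, HTSeq 0.6.1 and build mm10 are named in the submitters' processing notes, without roles. The sources used here give no annotation, strand setting or treatment of reads with several alignments. The table deposited by the authors is named as TPM, but its values behaved as RPM: in every cell at least 99.92% of values above 0 were whole multiples of 1 step within 0.001 RPM, and its rows held 8.31% to 23.0% of the total of a wild-type cell. The design had assumed either unit, and the same measures were used. Of 19642 rows, 84 ERCC rows and Rn45s were left out of the comparison. No doublet caller was run and no cell was removed.

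Values were rescaled, averaged and called as the report describes (pseudocount 1), with Python 3.11.15, numpy 2.4.6, pandas 2.3.3 and scipy 1.17.1, and the steps were tested on simulated data. Cells are not replicates and replicate letters were only shown side by side. Gene coordinates are those of GENCODE for build GRCm38, the same assembly as mm10, and promoters those of RefSeq. Named were the given genes with Id4 and Rhox10, the 15 highest and 15 lowest called genes whose mean level reached 2 and that have a proper gene name, up to 4 members at each end of 51 gene lists, and called list members. Some of the genes so picked are not reported here. Members and lists were chosen with earlier results of these data known. Alternatives covered scaling, pseudocount, floor on the level, weighting of cells, thinning to 2000000 reads, and leaving out each set, shallow cells and Sertoli-marker cells.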

Additional observations from a re-analysis of the deposited data

Results flagged for a closer look

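Rn45s, the precursor of ribosomal RNA, was left out of the comparisons of genes. On the deposited log2(RPM + 1) values it was higher in P7 cells by 0.80 (pairs 0.72 to 0.89), with set means of 13.4 and 13.5 in P7 A and B against 12.7 and 12.6 in P3 A and B. It was brought up here because this row lies outside the main measurement. After rescaling to the stably detected genes the difference was 0.34 (pairs 0.29 to 0.40).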

How the results depend on the processing

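No paired analysis was possible because the labels do not say what the letters mean, so whether they pair sets is not known, and no test was made. Of 139 higher and 515 lower genes, the counts stayed within 1.5 times under the other scalings to gene sums or median ratios, a lower floor, thinned reads, same-letter pairs (140 and 526), and without shallow cells (126 and 559) or Sertoli-marker cells (160 and 536, the 2 alternatives added after seeing the data). Deposited values gave 538 and 221, with a median of all genes of 0.17 in place of -0.14. A pseudocount of 0.1 gave 225 higher genes, and 1 of 10 gave 7 and 27 with a median of -0.0042. A floor of 2 gave 317 lower genes. With every cell weighted equally 92 were higher. Averaging before the logarithm gave 429 higher genes and a median of 0.016. Leaving out P7 set B gave 313 and 1125 and leaving out P3 set B 336 and 708. Without P7 set A 409 were lower, and without P3 set A the counts were 107 and 493. All these counts are totals under each alternative and not the genes that kept their call. Of the 139 higher and 515 lower genes, 77 and 288 kept it without P7 set A and 75 and 324 without P3 set A. With every cell weighted equally 71 and 313 did. More kept it without P7 set B (122 and 486) or P3 set B (130 and 455). The cause of these moves was not tested. None of 110 named called genes changed sign under any of the 19 alternatives, but many of these alternatives could not have changed it. A call required the same sign in every pair of sets. Leaving out a set, same-letter pairs, equal weighting of cells or another floor therefore could not reverse a sign. The unchanged signs are informative only for the remaining alternatives. Of the 110 genes, 68 were still called on the deposited values, 71 without P7 set A and 19 with a pseudocount of 10. Under the other 16 alternatives from 75 to 110 were still called, where same-letter pairs and a lower floor could not lose a call. Depth limits genes near the floor, since 5 P3 cells had under 1000000 reads.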
